A study of Homo sapiens with 12 samples.

Results

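The genes described are 10 genes that take up, activate, inactivate or compete with cytarabine and decitabine, a pair of cytidine analogues used against acute myeloid leukemia (AML). They were chosen by symbol from the 26485 genes of the count table: the transporters SLC29A1 and SLC29A2, the kinase DCK, the deaminases CDA and DCTD, the hydrolases NT5C2 and SAMHD1, and the deoxynucleotide-making enzymes RRM1, RRM2 and TYMS. RNA was sequenced from barcoded HEL cells, an established human erythroleukemia line. Untreated cells (NT, n = 2) were kept in medium with DMSO, and are listed with approximately 30 days of culture, as are the relapses. Relapses were cells that grew back for approximately 30 days after 72 h of drug: the Doxo group (n = 3) had the anthracycline doxorubicin at 1.8 µM, the Doxo+Cyta group (n = 3) had cytarabine at 6 µM besides, and the Doxo+Cyta+DAC group (n = 4) also had decitabine at 0.1 µM, which blocks DNA methylation. All groups share 1 cell line, every relapse had doxorubicin, and no group had cytarabine or decitabine alone. The libraries were made from live cells after regrowth, in fresh medium, so they show the cells that outlived the drugs and not the response during exposure. The labels say that each condition was run in biological replicates. The libraries Doxo 4 and Doxo+Cyta 20 stood apart from the others of their groups, and results that rest on them are given with and without them.

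Cytarabine and decitabine enter cells mainly through equilibrative nucleoside transporters and are inert until deoxycytidine kinase, DCK, adds their first phosphate. Cytidine deaminase, CDA, destroys the free nucleosides and dCMP deaminase, DCTD, their monophosphates, while nucleotidase NT5C2 can take phosphate off nucleoside monophosphates and SAMHD1 hydrolyses the active cytarabine triphosphate. Ribonucleotide reductase, made of RRM1 and RRM2, and thymidylate synthase, TYMS, feed the deoxynucleotide pools with which the drugs compete, and their genes are transcribed mostly in cells that replicate DNA.

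Relapses after the regimen with decitabine differed from the other groups in most of these genes, and with all libraries in the fit the relapses without it passed the test for none, relative to NT or to each other. In Doxo+Cyta+DAC the level of DCK was 1.74-fold lower than in NT, 2.15-fold lower than in Doxo and 1.68-fold lower than in Doxo+Cyta, while SAMHD1 was 2.11-, 2.89- and 3.37-fold higher. SLC29A1, DCTD, RRM1, RRM2 and TYMS were each higher in all 3 comparisons, by 1.33- to 1.71-fold. Doxo+Cyta+DAC also had higher SLC29A2 than either other relapse group, while its difference from NT did not pass the test. CDA was at the limit of detection in every group.

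Counts passed edgeR's filter for 14164 genes, among them 9 of the 10 genes, all but CDA. A gene was called at an adjusted p under 0.05 in edgeR's quasi-likelihood test, adjusted over all tested genes. Of the 9, 7 were called in Doxo+Cyta+DAC relative to NT (6 higher, 1 lower), where 48.7% of all tested genes were called, 24.9% higher and 23.7% lower. Relative to Doxo all 9 were called (7 higher, 2 lower), where 59.5% of tested genes were called. Relative to Doxo+Cyta 8 were called (7 higher, 1 lower), where the share of all tested genes was 60.3%. These comparisons share the Doxo+Cyta+DAC libraries and are not independent of each other. Since so many genes differed, being called does not set the 9 genes apart, and their direction is read against 29.1% of tested genes called higher relative to Doxo and 29.8% relative to Doxo+Cyta. The median log2 fold change of the 9 was 0.47 relative to NT, 0.50 relative to Doxo and 0.64 relative to Doxo+Cyta, beside 0.024, -0.0055 and 0.00025 over all tested genes. The libraries of the compared groups did not overlap for 7 of the 9 genes relative to NT, 9 relative to Doxo and 8 relative to Doxo+Cyta, beside 67.1%, 60% and 57.2% of all tested genes.

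In the relapses without decitabine edgeR called 0 of the 9 in Doxo relative to NT, where 10.7% of tested genes were called (6.06% higher, 4.63% lower), 0 in Doxo+Cyta relative to NT (1.46%) and 0 in Doxo+Cyta relative to Doxo (3.4%, with 1.07% higher and 2.32% lower). At an unadjusted p under 0.05 the counts were 1, 2 and 0, and DESeq2 called 1, 0 and 0. The libraries did not overlap for 3, 5 and 3 of the 9, beside 49%, 40.6% and 21% of all tested genes. These counts rest on libraries that stood apart. Doxo 4 differed from Doxo 5 and Doxo 6 by a chi-square of 27.8 and 25.5 per gene against 2.97 between those, and Doxo+Cyta 20 differed from Doxo+Cyta 19 and 22 by 43.7 and 45.3 against 6.93. Without both of them, an alternative chosen after seeing the data, 4 genes were called in Doxo relative to NT (DCK, NT5C2, SLC29A2 and TYMS), 2 in Doxo+Cyta relative to NT (SLC29A2 and TYMS) and 1 in Doxo+Cyta relative to Doxo (DCK), while the counts with Doxo+Cyta+DAC were 7, 9 and 9. The share of all tested genes called in that fit was 37.4%, 14.5% and 8.96% without Doxo+Cyta+DAC, and 60.7%, 67.9% and 66.8% with it, so that calls rose over all genes and not in these genes alone.

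Total counts per library ran from 12763582 to 19106235, so that 3 counts, the least taken as detected, equal 0.157 to 0.235 CPM, a limit that covers counting error only. CPM are counts relative to the library total, scaled by the TMM method. All 12 markers of HEL cells, such as GATA1, KLF1 and HBG1, had over 3 counts in every library, while 7 of 12 markers of lymphocytes, monocytes, fibroblasts and epithelium had at most 3 in each. Above this in some or all libraries were LYZ (344 to 772 counts), CD79A (13 to 103), COL1A1 (1 to 19), KRT8 (2 to 11) and CD14 (0 to 8). CD79A, a B-cell marker, had 0.894 to 1.68 CPM in Doxo+Cyta+DAC and 2.33 to 6.00 CPM elsewhere. The summed CPM of the HEL markers in Doxo+Cyta+DAC was 6414 to 8637, against 8381 to 9598 in NT, 9564 to 10483 in Doxo, and 10145 to 11093 in Doxo+Cyta. That of the other markers, mostly LYZ, which myeloid cells express, was 29.1 to 30.7 in Doxo+Cyta+DAC against 32.3 to 34.7, 36.2 to 49.0 and 41.2 to 47.2 in the other groups in the same order. The sum of the HEL markers is mostly HBG2 and HBG1. HBG2 had 3124 to 5113 CPM in Doxo+Cyta+DAC, overlapping NT and Doxo but below Doxo+Cyta (5407 to 6411 CPM). HBG1 had 918 to 1195 CPM in Doxo+Cyta+DAC, overlapping NT and Doxo+Cyta but below Doxo (1220 to 1476 CPM). Of the 12 markers taken singly, 6 lay lower in all 4 Doxo+Cyta+DAC libraries than in any other library (GATA1, TAL1, KLF1, EPOR, ITGA2B and JAK2), 1 lay higher (GP1BA) and 5 overlapped. GATA1, for example, had 172 to 194 CPM in Doxo+Cyta+DAC and 266 to 421 CPM elsewhere, and GP1BA 45.3 to 77.7 against 26.9 to 44.7 CPM. The part of these shifts in the results was not tested. In bulk RNA, fewer cells that express a gene and less RNA of it per cell cannot be told apart.

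**Figure D1:**
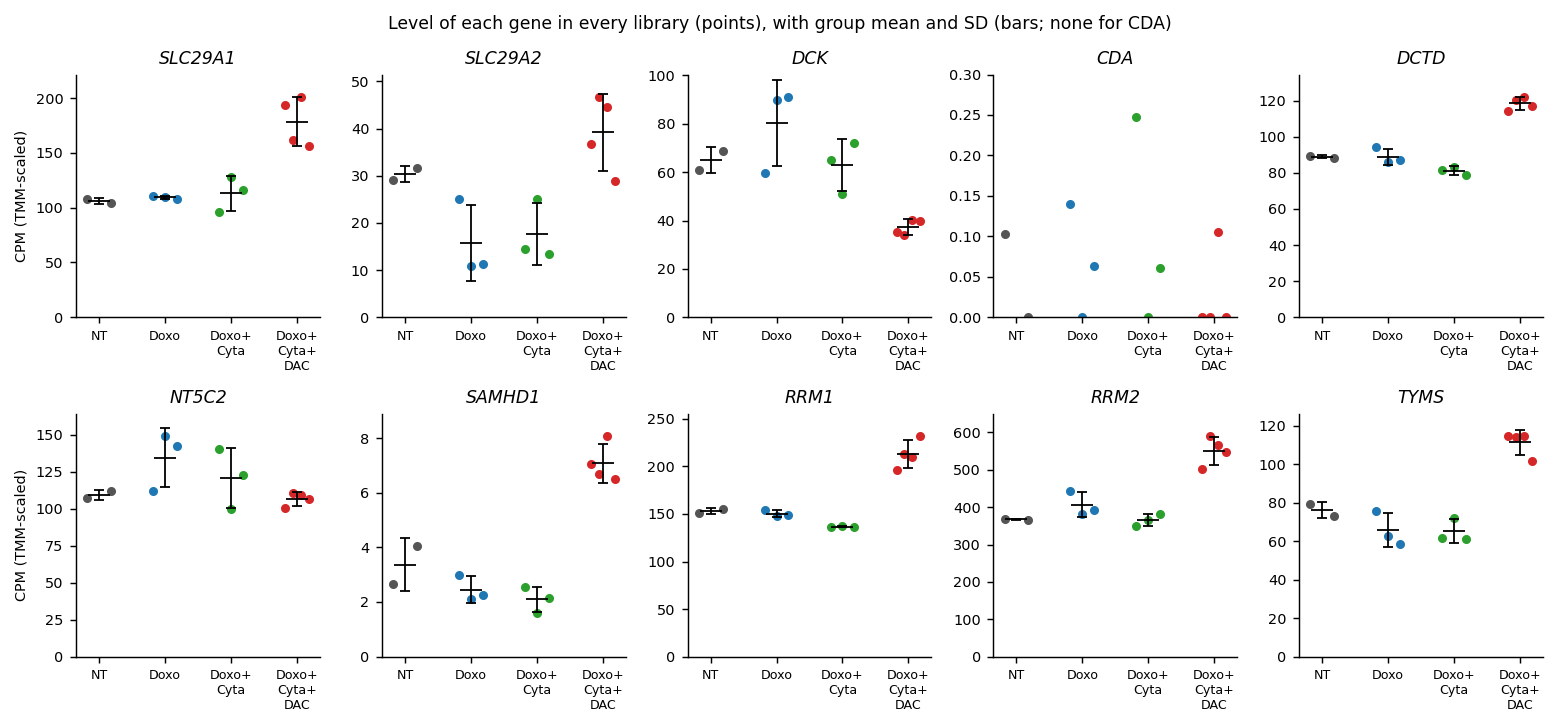
Level in CPM (y axis, from 0) of the 10 genes in each of 12 libraries, by group (x axis). Points are libraries and bars the group mean and SD, left out for CDA, and the Doxo+Cyta+DAC points lie below those of all other groups for DCK and above them for SLC29A1, DCTD, SAMHD1, RRM1, RRM2 and TYMS.

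Levels were compared between genes per length, as CPM per kilobase of exon (FPKM), averaged over 12 libraries. RRM2 was the highest at 128 FPKM, followed by RRM1 at 52.7, TYMS at 52.1, DCTD at 47.5 and SLC29A1 at 44.5. The ranges over libraries of RRM1 (42.7 to 72.7 FPKM), TYMS (37.1 to 72.4), DCTD (38.6 to 59.9) and SLC29A1 (32.3 to 67.5) overlapped, so the order of those neighbours is not fixed. NT5C2 followed at 33.3 FPKM (28.2 to 42.2), DCK at 22.7 (13.0 to 35.0) and SLC29A2 at 9.16 (3.77 to 16.2). The range of NT5C2 overlapped those of SLC29A1, DCTD, TYMS and DCK, and that of DCK overlapped that of SLC29A2. The order also differed between libraries, with NT5C2 above SLC29A1 in Doxo 5, Doxo 6 and Doxo+Cyta 19. SAMHD1 was low at 1.27 FPKM, a level above that of 21.8% of tested genes, with 24 to 154 counts per library. CDA averaged 0.0625 FPKM.

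Of the transporters, SLC29A1 (ENT1, chr6:44219553-44234142 on the plus strand of GRCh38) is the main route of cytarabine into leukemic cells. SLC29A1 measured 108 and 104 CPM in NT, 111, 109.7 and 108 CPM in Doxo 4, 5 and 6, and 96.3, 128 and 116 CPM in Doxo+Cyta 19, 20 and 22. The Doxo+Cyta+DAC libraries 30, 31, 32 and 33 had 194, 162, 201 and 157 CPM of SLC29A1. All 4 were above every other library. SLC29A1 was higher by a log2 fold change of 0.75 ± 0.14 (SE) relative to NT (adjusted p = 0.000532), 0.70 ± 0.12 relative to Doxo (adjusted p = 0.000173) and 0.66 ± 0.12 relative to Doxo+Cyta (adjusted p = 0.000279). Between the other groups its log2 fold changes were 0.05 for Doxo relative to NT (95% interval -0.25 to 0.35), 0.09 for Doxo+Cyta relative to NT (-0.20 to 0.39) and 0.05 for Doxo+Cyta relative to Doxo (-0.22 to 0.31).

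SLC29A2 (ENT2, chr11:66362521-66372214, minus strand), a second equilibrative carrier that also moves nucleobases, had 29.1 and 31.6 CPM in NT. It measured 25.0, 10.9 and 11.3 CPM in Doxo 4, 5 and 6 and 14.5, 25.2 and 13.3 CPM in Doxo+Cyta 19, 20 and 22. In both groups of relapses the library that stood apart from its group was nearest to NT, and the other 4 libraries were at 10.9 to 14.5 CPM. In Doxo+Cyta+DAC 30 to 33 the values were 36.6, 46.8, 44.5 and 28.8 CPM, above every library of the other relapses but overlapping NT through Doxo+Cyta+DAC 33. SLC29A2 was higher in Doxo+Cyta+DAC than in Doxo by 1.32 ± 0.30 on the log2 scale (adjusted p = 0.00159) and than in Doxo+Cyta by 1.15 ± 0.29 (adjusted p = 0.0037), and its difference from NT was 0.37 (95% interval -0.32 to 1.06, adjusted p = 0.361). Doxo had -0.95 ± 0.34 relative to NT (adjusted p = 0.084), which became -1.48 without Doxo 4 (adjusted p = 0.00437) and was also called with DESeq2 (-0.96, adjusted p = 0.0401) and with no filter on low counts (-1.01, adjusted p = 0.0285). Doxo+Cyta had -0.78 relative to NT (adjusted p = 0.212), and -1.14 without Doxo 4 and Doxo+Cyta 20 (adjusted p = 0.00256). Per length, SLC29A1 over SLC29A2 was 3.35 to 5.26 in Doxo+Cyta+DAC against 3.19 to 3.60 in NT, 4.30 to 9.75 in Doxo, and 4.91 to 8.41 in Doxo+Cyta.

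DCK (chr4:70992538-71030914, plus strand), the kinase without which neither drug is activated, was the gene lower in every comparison with Doxo+Cyta+DAC. It had 61.1 and 68.8 CPM in NT, 59.8, 89.8 and 91.3 CPM in Doxo 4, 5 and 6, and 65.2, 51.1 and 72.2 CPM in Doxo+Cyta 19, 20 and 22. The values of DCK in Doxo+Cyta+DAC 30 to 33 were 35.3, 33.8, 40.2 and 39.9 CPM. The highest of these 4 was below the lowest of the other 8 libraries, which were Doxo+Cyta 20 and Doxo 4 at the low end and Doxo 5 and 6 at the high end. DCK fell by 0.80 ± 0.17 on the log2 scale relative to NT (adjusted p = 0.00186), by 1.11 ± 0.16 relative to Doxo (adjusted p = 3.96e-05) and by 0.75 ± 0.16 relative to Doxo+Cyta (adjusted p = 0.000873). In Doxo relative to NT it had a log2 fold change of 0.31 (95% interval -0.09 to 0.71, adjusted p = 0.299), and 0.45 without Doxo 4 and Doxo+Cyta 20 (adjusted p = 0.00569). In Doxo+Cyta relative to Doxo it had -0.35 (-0.71 to 0.0023, adjusted p = 0.267), which was called without Doxo 4 (-0.52, adjusted p = 0.0468). Doxo+Cyta relative to NT gave -0.05 (-0.45 to 0.35).

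The sequence at the DCK start is shown because DCK was the member that fell in every comparison with Doxo+Cyta+DAC. Promoter sequences are from RefSeq on GRCh38.p14, from 250 bases before to 30 bases after RefSeq's start site, and 9 of the 10 genes matched (SLC29A2 did not). They were searched on both strands for CCAAT, the word bound by NF-Y, and for the E2F words TTTGGCGC, TTTCGCGC, TTTCCCGC and TTTGCCGC, and no window held both kinds of word. Of 35116 promoters of this length 33.6% held CCAAT and 3.14% an E2F word. The DCK window, chr4:70993399-70993678 on the plus strand, held 34 CpG dinucleotides, beside a median of 13 over all promoters. It held an E2F word on its minus strand, at base 22 counted from the start site, in capitals. The other windows held 32 (TYMS), 29 (RRM2), 26 (DCTD), 23 (SLC29A1), 21 (SAMHD1), 18 (RRM1), 7 (CDA) and 3 (NT5C2) CpG, so a high count was not particular to DCK. The DCK window lies inside the gene, whose annotated start is at 70992538, so it shows an internal start site. Methylation of these sequences was not analysed here.
DCK: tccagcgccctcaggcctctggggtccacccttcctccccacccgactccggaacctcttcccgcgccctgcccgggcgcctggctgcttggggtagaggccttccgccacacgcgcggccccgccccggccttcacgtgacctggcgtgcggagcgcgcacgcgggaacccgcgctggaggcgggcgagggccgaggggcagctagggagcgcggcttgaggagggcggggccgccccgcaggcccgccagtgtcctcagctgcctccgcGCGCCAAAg

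CDA (chr1:20589086-20618903, plus strand), the deaminase that inactivates both drugs in liver and blood cells, had 2 and 0 counts in NT, 2, 0 and 1 in Doxo 4, 5 and 6, 4, 0 and 1 in Doxo+Cyta 19, 20 and 22, and 0, 0, 2 and 0 in Doxo+Cyta+DAC 30 to 33. That is 12 counts over 12 libraries, and only Doxo+Cyta 19 exceeded 3 counts, at 0.247 CPM. A difference in CDA between groups was not detectable at this depth.

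DCTD (chr4:182890060-182917936, minus strand) deaminates dCMP to dUMP, the substrate of TYMS, and also the monophosphates of both drugs. It had 89.4 and 88.3 CPM in NT, 94.1, 85.8 and 87.3 CPM in Doxo 4, 5 and 6, and 81.7, 83.5 and 78.8 CPM in Doxo+Cyta 19, 20 and 22. Doxo+Cyta+DAC 30 to 33 had 114, 120.4, 122 and 117 CPM. The 4 values lay close together and above all other libraries. DCTD was higher by 0.42 ± 0.10 on the log2 scale relative to NT (adjusted p = 0.00289), 0.41 ± 0.08 relative to Doxo (adjusted p = 0.00082) and 0.54 ± 0.08 relative to Doxo+Cyta (adjusted p = 8.34e-05). In Doxo relative to NT it gave 0.0034 (95% interval -0.21 to 0.22), in Doxo+Cyta relative to NT -0.13 (-0.34 to 0.09) and in Doxo+Cyta relative to Doxo -0.13 (-0.32 to 0.06).

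NT5C2 (chr10:103087185-103277605, minus strand), a cytosolic nucleotidase that prefers purine monophosphates, stood out by not following the others. It had 107 and 112 CPM in NT, 112, 149 and 143 CPM in Doxo 4, 5 and 6, and 140.2, 99.7 and 123 CPM in Doxo+Cyta 19, 20 and 22. Doxo+Cyta+DAC 30 to 33 had 100.3, 111, 109 and 107 CPM, within the range of NT and Doxo+Cyta and just below Doxo 4. The log2 fold change of NT5C2 in Doxo+Cyta+DAC was -0.04 relative to NT (95% interval -0.34 to 0.27, adjusted p = 0.848) and -0.18 relative to Doxo+Cyta (-0.45 to 0.09, adjusted p = 0.224). The latter was called without Doxo+Cyta 20 (-0.31, adjusted p = 0.0283). Relative to Doxo it was -0.34 ± 0.12 (adjusted p = 0.0317), and this call was lost without Doxo 5 (adjusted p = 0.149), Doxo 6 (0.11), Doxo+Cyta+DAC 30 (0.0777), Doxo+Cyta+DAC 32 (0.0527) or Doxo+Cyta+DAC 33 (0.0571). Doxo relative to NT gave 0.30 (-0.02 to 0.62, adjusted p = 0.21), and 0.38 without Doxo 4 and Doxo+Cyta 20 (adjusted p = 0.00499).

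SAMHD1 (chr20:36890229-36951893, minus strand), the triphosphohydrolase that degrades deoxynucleotides and cytarabine triphosphate, had the highest log2 fold change of the 9 genes in all 3 comparisons with Doxo+Cyta+DAC when every library was in the fit. Without Doxo 4, SLC29A2 exceeded it relative to Doxo (1.83 against 1.70). It had 2.68 and 4.05 CPM in NT, 3.00, 2.10 and 2.27 CPM in Doxo 4, 5 and 6, and 2.54, 1.601 and 2.14 CPM in Doxo+Cyta 19, 20 and 22. SAMHD1 in Doxo+Cyta+DAC 30 to 33 reached 7.04, 6.67, 8.08 and 6.49 CPM, from 82 to 154 counts. The lowest of these was above the highest other library, NT 2. SAMHD1 was higher by 1.08 ± 0.25 on the log2 scale relative to NT (adjusted p = 0.00261), 1.53 ± 0.22 relative to Doxo (adjusted p = 5.3e-05) and 1.75 ± 0.23 relative to Doxo+Cyta (adjusted p = 1.69e-05). The NT replicates differed from each other, and without NT 1 the first of these was 0.80 and not called (adjusted p = 0.066). Doxo had -0.45 relative to NT (95% interval -1.02 to 0.12, adjusted p = 0.28) and Doxo+Cyta -0.67 (-1.25 to -0.10, adjusted p = 0.18). SAMHD1 shares exon bases with TLDC2 on the opposite strand, with 205 bases the largest overlap between single exons. The counts do not use strand, but TLDC2 itself had 0 to 4 counts per library.

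The SAMHD1 window, chr20:36951679-36951958 on the minus strand, is shown because SAMHD1 was higher in all 3 comparisons with Doxo+Cyta+DAC, opposite to DCK. It held 21 CpG and CCAAT at 2 places, 49 and 38 bases before the start site, in capitals, and no E2F word of those searched.
SAMHD1: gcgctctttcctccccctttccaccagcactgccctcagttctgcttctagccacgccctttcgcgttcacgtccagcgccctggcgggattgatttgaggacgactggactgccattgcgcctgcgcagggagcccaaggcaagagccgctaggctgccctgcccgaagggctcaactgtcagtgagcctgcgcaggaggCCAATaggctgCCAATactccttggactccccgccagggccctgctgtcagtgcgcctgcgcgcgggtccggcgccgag

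The ratio of DCK to SAMHD1, levels per length of the first activating kinase and of the triphosphate hydrolase, was between 6.09 and 7.52 in Doxo+Cyta+DAC, against 20.8 and 28.0 in NT, 24.4 to 52.5 in Doxo, and 31.5 to 41.3 in Doxo+Cyta. The Doxo+Cyta+DAC libraries were the only ones under 20.8. DCK over DCTD was 0.220 to 0.267 in Doxo+Cyta+DAC and 0.480 to 0.821 in the other libraries, and DCK over NT5C2 was 0.414 to 0.508 against 0.631 to 0.868. These ratios restate the levels above and were not tested on their own.

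**Figure D2:**
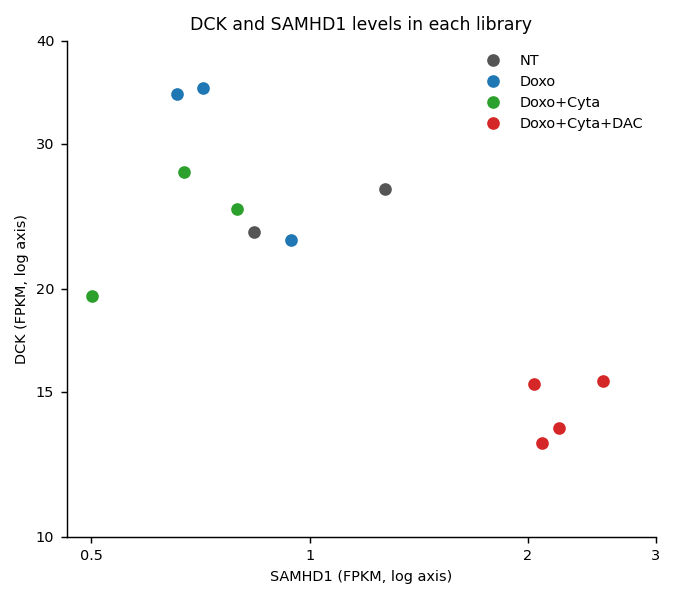
Level of DCK (y axis) and SAMHD1 (x axis) in each of 12 libraries, both in FPKM on log axes, 1 point per library coloured by group. The 4 Doxo+Cyta+DAC libraries lie at the lower right, at 13.0 to 15.4 FPKM of DCK and 2.04 to 2.53 FPKM of SAMHD1, apart from the other 8.

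Of deoxynucleotide supply, the members RRM1, RRM2 and TYMS were each higher in Doxo+Cyta+DAC. RRM1 (chr11:4094707-4138932, plus strand), the large subunit of ribonucleotide reductase, had 151 and 156 CPM in NT, 155, 148 and 149 CPM in Doxo 4, 5 and 6, and 136, 137 and 136 CPM in Doxo+Cyta 19, 20 and 22. RRM1 in Doxo+Cyta+DAC 30 to 33 reached 197, 213, 209.6 and 232 CPM. The Doxo+Cyta libraries were the lowest and the Doxo+Cyta+DAC libraries the highest, with no overlap. RRM1 was higher in Doxo+Cyta+DAC by 0.47 ± 0.10 on the log2 scale relative to NT (adjusted p = 0.00119), 0.50 ± 0.08 relative to Doxo (adjusted p = 0.000173) and 0.64 ± 0.08 relative to Doxo+Cyta (adjusted p = 2.03e-05). In Doxo+Cyta relative to NT RRM1 had -0.17 (95% interval -0.38 to 0.05, adjusted p = 0.368), and in Doxo relative to NT -0.03 (-0.24 to 0.19).

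RRM2 (chr2:10120698-10211725, plus strand), the small subunit whose amount limits the reductase, had 369 and 366 CPM in NT, 445, 382 and 393 CPM in Doxo 4, 5 and 6, and 349.6, 366 and 381 CPM in Doxo+Cyta 19, 20 and 22. RRM2 in Doxo+Cyta+DAC 30 to 33 reached 502, 591, 565 and 548 CPM, again above all other libraries. The log2 fold changes of RRM2 were 0.59 ± 0.10 relative to NT (adjusted p = 0.000414), 0.44 ± 0.09 relative to Doxo (adjusted p = 0.000772) and 0.59 ± 0.09 relative to Doxo+Cyta (adjusted p = 6.32e-05). Doxo relative to NT gave 0.15 (95% interval -0.08 to 0.37) and Doxo+Cyta relative to NT -0.0070 (-0.23 to 0.22). RRM2 exceeded RRM1 per length by 2.18- to 2.67-fold over the 12 libraries, and its range in Doxo+Cyta+DAC, 2.19 to 2.58, overlapped those of all other groups.

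TYMS (chr18:657653-673578, plus strand), which makes dTMP from dUMP, had 79.2 and 73.1 CPM in NT, 75.8, 62.7 and 58.7 CPM in Doxo 4, 5 and 6, and 61.6, 72.2 and 61.2 CPM in Doxo+Cyta 19, 20 and 22. TYMS in Doxo+Cyta+DAC 30 to 33 reached 114.5, 114.2, 114.6 and 102 CPM. Doxo 4 and Doxo+Cyta 20 were nearest to NT in their groups, and Doxo+Cyta+DAC 33 was the lowest of its group but above all others. TYMS was higher by 0.55 ± 0.13 on the log2 scale relative to NT (adjusted p = 0.0031), 0.76 ± 0.11 relative to Doxo (adjusted p = 6.16e-05) and 0.78 ± 0.11 relative to Doxo+Cyta (adjusted p = 4.54e-05). Without NT 2 the first of these was 0.49 and not called (adjusted p = 0.0505). Doxo had -0.21 relative to NT (95% interval -0.50 to 0.07, adjusted p = 0.307) and Doxo+Cyta -0.23 (-0.51 to 0.05, adjusted p = 0.35), and without Doxo 4 and Doxo+Cyta 20 they were -0.36 and -0.33 and called (adjusted p = 0.00925 and 0.03). TYMS shares exon bases with ENOSF1 and TYMSOS on the opposite strand, where the largest overlap between 2 single exons is 640 and 106 bases. ENOSF1 averaged 29.5 CPM in Doxo+Cyta+DAC, 22.5 CPM in NT, 14.96 CPM in Doxo and 19.4 CPM in Doxo+Cyta. It was higher in Doxo+Cyta+DAC relative to Doxo (0.98 on the log2 scale, adjusted p = 0.000785) and Doxo+Cyta (0.60, adjusted p = 0.016). Fragments of the shared bases could not be told apart by strand, and those assigned to several genes were left out of the counts. The annotation also lists 3 processed pseudogenes of RRM2 and 2 of TYMS, and reads shared with them are a further uncertainty of their counts.

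The windows of RRM1 (chr11:4094435-4094714), RRM2 (chr2:10122489-10122768) and TYMS (chr18:657403-657682), all on the plus strand, are shown since all 3 genes rose in Doxo+Cyta+DAC. CCAAT was found at 1 place in RRM1, 28 bases before the start site, and at 3 places in RRM2, 123, 93 and 66 bases before it, and TYMS held an E2F word on its minus strand, 39 bases before it. The capitals mark these words. Of the 9 windows, 3 held CCAAT (RRM1, RRM2 and SAMHD1) and 3 an E2F word (DCK, CDA and TYMS), so that the genes that rose shared no single word of those searched, and the windows of SLC29A1, DCTD and NT5C2 held none. The NT5C2 window (chr10:103153792-103154071, minus strand) held 3 CpG and lies inside the gene, whose annotated start is at 103277605. It therefore shows an internal start site and not the region before the annotated start. The same holds for the windows of DCK, RRM2 (annotated start at 10120698) and DCTD (annotated start at 182917936), which also lie inside their genes.
RRM1: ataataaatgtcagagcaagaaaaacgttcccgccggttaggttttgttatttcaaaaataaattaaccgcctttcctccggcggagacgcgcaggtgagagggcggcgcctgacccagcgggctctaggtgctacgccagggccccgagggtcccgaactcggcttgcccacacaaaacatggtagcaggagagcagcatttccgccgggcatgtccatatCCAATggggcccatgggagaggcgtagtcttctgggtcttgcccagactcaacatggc
RRM2: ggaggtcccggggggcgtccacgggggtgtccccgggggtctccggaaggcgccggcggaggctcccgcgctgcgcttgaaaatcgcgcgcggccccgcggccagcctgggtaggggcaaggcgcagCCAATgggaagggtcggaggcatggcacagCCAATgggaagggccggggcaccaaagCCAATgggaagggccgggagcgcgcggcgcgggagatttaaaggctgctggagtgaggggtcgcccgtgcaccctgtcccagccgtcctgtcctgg
TYMS: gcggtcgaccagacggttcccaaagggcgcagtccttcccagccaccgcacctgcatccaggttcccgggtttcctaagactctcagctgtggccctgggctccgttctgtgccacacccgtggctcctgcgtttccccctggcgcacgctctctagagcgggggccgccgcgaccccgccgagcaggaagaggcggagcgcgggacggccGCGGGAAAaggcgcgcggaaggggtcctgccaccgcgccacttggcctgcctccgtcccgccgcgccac

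**Figure D3:**
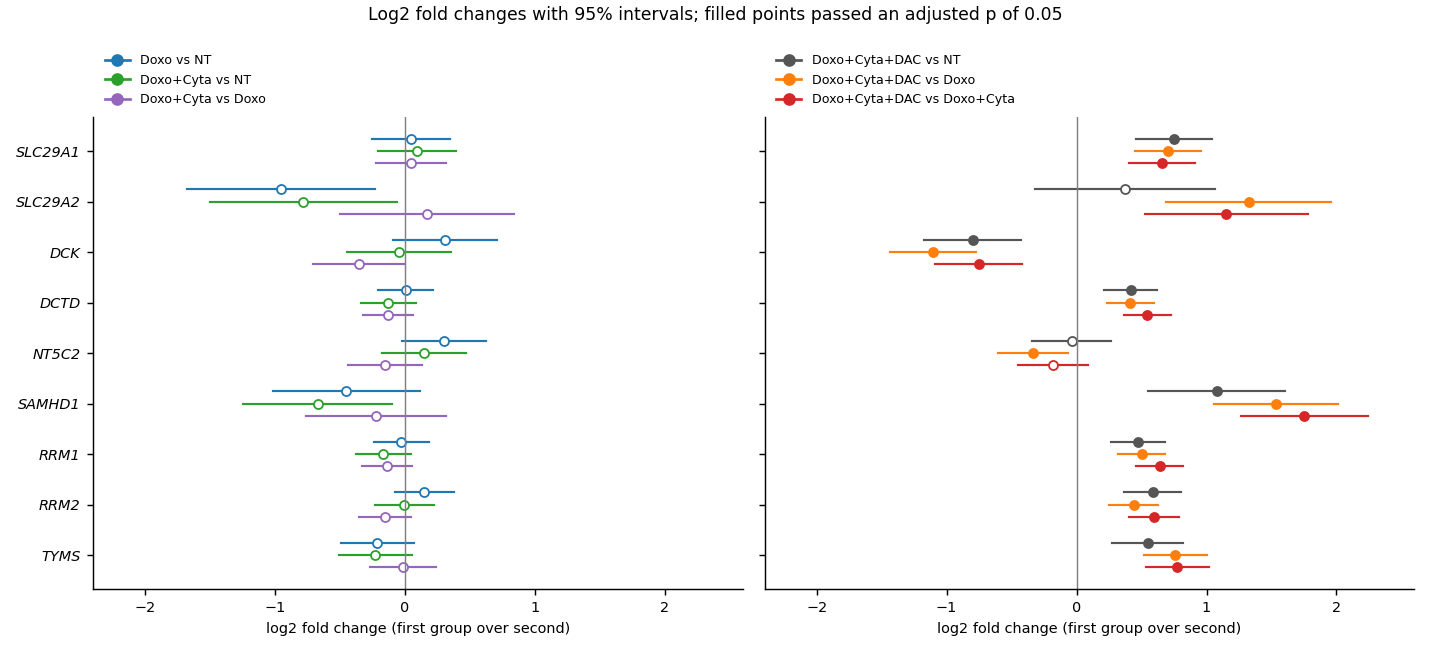
Log2 fold changes (x axis) of the 9 tested genes with 95% intervals, the first group over the second, for comparisons without Doxo+Cyta+DAC (left) and with it (right). Filled points passed an adjusted p of 0.05, which is 0 of 27 on the left and 24 of 27 on the right, where the points of DCK and NT5C2 lie left of 0.

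S-phase genes moved with these results. Of 43 genes of the S-phase list of Seurat that are neither members nor among the other pathway genes below, 34 were called higher in Doxo+Cyta+DAC relative to NT, 40 relative to Doxo and 39 relative to Doxo+Cyta, and 0 lower, with median log2 fold changes of 0.74, 1.16 and 1.11. In Doxo relative to NT 9 were called lower and in Doxo+Cyta relative to NT 2. Over all tested genes 24.9%, 29.1% and 29.8% were called higher in Doxo+Cyta+DAC relative to NT, Doxo and Doxo+Cyta, and 23.7%, 30.4% and 30.5% lower. In Doxo and Doxo+Cyta relative to NT 4.63% and 0.551% of all tested genes were called lower. The summed level of the 43 S-phase genes was 6113 to 6426 CPM in Doxo+Cyta+DAC, against 3683 and 3779 CPM in NT, 2677 to 3534 CPM in Doxo, and 2859 to 3261 CPM in Doxo+Cyta. The highest Doxo and Doxo+Cyta values were those of Doxo 4 and Doxo+Cyta 20. RRM1, RRM2 and TYMS rose less in log2 terms (0.44 to 0.78) than the median S-phase gene, and DCK went the other way. The part of S-phase content in the results was not tested.

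**Figure D4:**
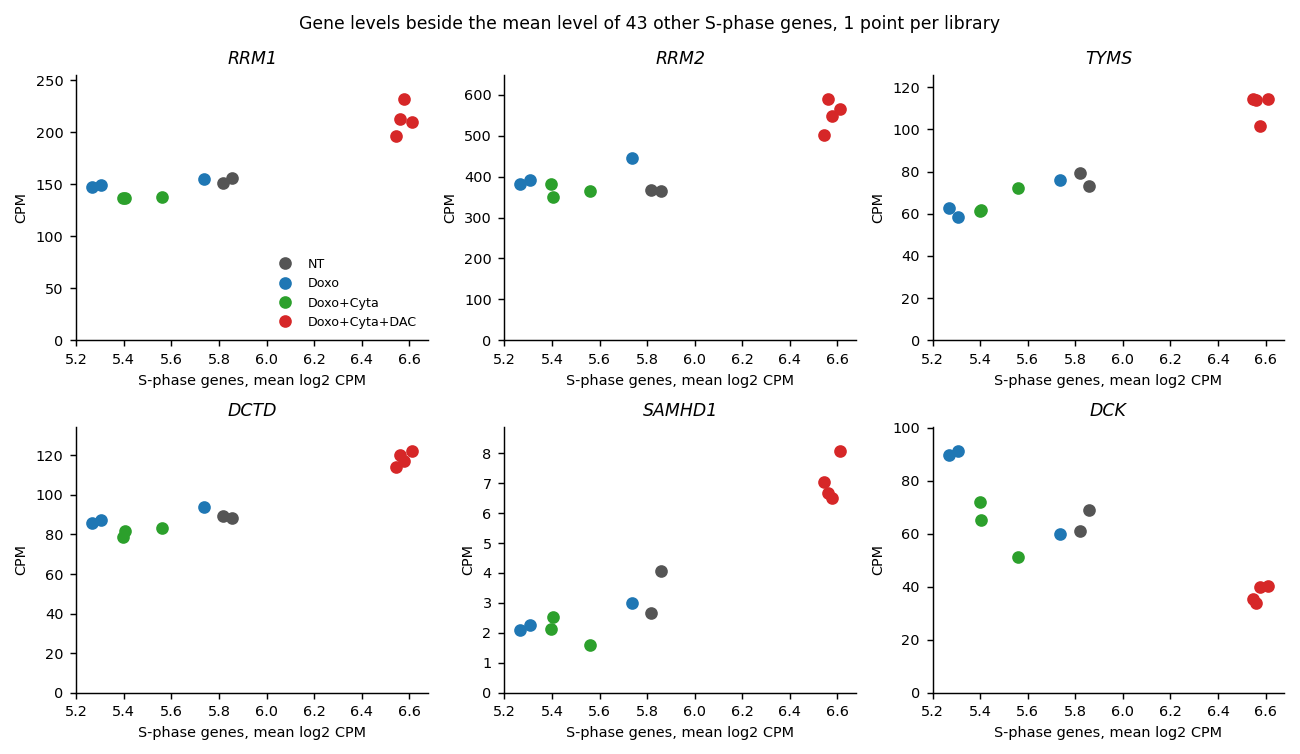
Level in CPM (y axes, from 0) of RRM1, RRM2, TYMS, DCTD, SAMHD1 and DCK against the mean log2 CPM of 43 other S-phase genes (x axes), 1 point per library. The Doxo+Cyta+DAC libraries lie at 6.55 to 6.61 on the x axis and the other 8 at 5.27 to 5.86.

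Further genes of the pathway were counted in 4 lists, 53 genes in all, of which 45 were tested. The lists cover the handling of nucleosides and nucleotides at large, with enzymes of purines among them. Not every gene counted acts on cytarabine or decitabine. Where 4 mean levels of a gene are given, they are those of NT first, then of Doxo, then of Doxo+Cyta, and last of Doxo+Cyta+DAC. Test results are given mainly where a gene was among the 2 with the smallest adjusted p of its list and direction. A comparison left out may also have been called. For example, ITPA, PNP, CMPK2, NME1, GLRX, CTPS2 and ADA were called in the same direction in further comparisons with Doxo+Cyta+DAC. In Doxo+Cyta+DAC 28 of the 45 were called relative to NT (20 higher, 8 lower), 34 relative to Doxo (24 and 10) and 35 relative to Doxo+Cyta (24 and 11), beside 48.7%, 59.5% and 60.3% of all tested genes. By direction, 24.9%, 29.1% and 29.8% of all tested genes were called higher and 23.7%, 30.4% and 30.5% lower. The counts of the 4 lists below are to be read against these shares, and a count near its share does not set a list apart. In Doxo relative to NT 3 were called, 2 lower, among them NME3, and 1 higher, SLC25A33. In Doxo+Cyta relative to NT edgeR called 0, with 4 at an unadjusted p under 0.05 and 0 by DESeq2, and in Doxo+Cyta relative to Doxo 1, NME3, which was higher. The shares of all tested genes in these 3 comparisons were 10.7%, 1.46% and 3.4%. Without Doxo 4 and Doxo+Cyta 20 the counts were 20, 10 and 5, beside 37.4%, 14.5% and 8.96% of all tested genes.

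Of 5 uptake and release genes tested besides the members, 0 were higher and 2 lower relative to NT, 1 higher and 3 lower relative to Doxo, and 0 higher and 3 lower relative to Doxo+Cyta. SLC28A3, a concentrative nucleoside transporter, averaged 3.08, 3.75, 3.70 and 1.47 CPM, and fell by 1.07, 1.36 and 1.34 on the log2 scale relative to NT, Doxo and Doxo+Cyta (adjusted p = 0.0135, 0.0011 and 0.00117). ABCC4, an exporter of nucleotide analogues, averaged 702, 895, 694 and 448 CPM and fell by 0.65, 1.00 and 0.63 (adjusted p = 0.00846, 0.000118 and 0.00362), its libraries overlapping those of Doxo+Cyta. Without NT 2 neither was called relative to NT (adjusted p = 0.1 and 0.0828). ABCC10 was higher relative to Doxo by 0.42 (adjusted p = 0.0121), a call lost without Doxo 5 (0.0614) or Doxo 6 (0.0719). SLC28A1, SLC28A2, SLC29A4 and ABCC11 had at most 9 counts in any library and were not tested.

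Among 16 activating kinases 8 were higher and 2 lower relative to NT, 8 and 1 relative to Doxo, and 9 and 2 relative to Doxo+Cyta. NME1, a nucleoside diphosphate kinase, averaged 37.9, 25.6, 29.5 and 118 CPM and was higher by 1.64 ± 0.26 relative to NT and 2.21 ± 0.23 relative to Doxo (adjusted p = 0.000216 and 3.64e-06). UCK2, a uridine and cytidine kinase, averaged 61.2, 49.2, 58.4 and 107 CPM, and was higher by 0.80, 1.12 and 0.87 relative to NT, Doxo and Doxo+Cyta (adjusted p = 7.6e-05, 9.81e-07 and 4.84e-06). CMPK2, a mitochondrial UMP-CMP kinase, was higher relative to Doxo+Cyta by 1.37 (adjusted p = 4.32e-06). TK2, the mitochondrial thymidine kinase, which also accepts deoxycytidine, averaged 9.08, 9.80, 11.9 and 4.96 CPM and fell like DCK, by 0.87, 0.98 and 1.27 (adjusted p = 0.00164, 0.000199 and 1.92e-05). NME3, at 3.38, 1.32, 3.26 and 1.82 CPM, was lower in Doxo relative to NT by a log2 fold change of -1.37 (adjusted p = 0.0252), in Doxo+Cyta+DAC relative to NT by -0.89 (adjusted p = 0.0312) and relative to Doxo+Cyta by -0.84 (adjusted p = 0.0217), and higher in Doxo+Cyta relative to Doxo by 1.31 (adjusted p = 0.0418). The calls of NME3 rested on single libraries: that in Doxo was lost without NT 1, NT 2, Doxo 5 or Doxo 6 (adjusted p = 0.0744 to 0.185), and that in Doxo+Cyta relative to Doxo without Doxo 5, Doxo 6, Doxo+Cyta 19 or Doxo+Cyta 20 (0.0928 to 0.169) or with only those groups in the fit (0.153). Those in Doxo+Cyta+DAC were lost relative to NT without NT 1, NT 2, Doxo+Cyta+DAC 32 or 33 (adjusted p = 0.0646 to 0.174), and relative to Doxo+Cyta without Doxo+Cyta 20, Doxo+Cyta+DAC 32 or 33 (0.0506 to 0.083).

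Of 13 inactivating enzymes tested 7 were higher and 2 lower relative to NT, and 8 higher and 3 lower relative to each of Doxo and Doxo+Cyta. DCTPP1, a pyrophosphatase that clears dCTP and decitabine triphosphate, averaged 37.9, 30.4, 35.9 and 100.2 CPM, and was higher by 1.73 ± 0.22 relative to Doxo (adjusted p = 1.57e-05) and 1.48 ± 0.21 relative to Doxo+Cyta (adjusted p = 4.45e-05). ITPA, an inosine triphosphatase, was higher relative to Doxo by 1.77 (adjusted p = 6.66e-06). PNP, purine nucleoside phosphorylase, was higher relative to NT by 0.69 (adjusted p = 0.000327). NT5M, the mitochondrial deoxynucleotidase, averaged 43.2, 35.5, 45.3 and 12.6 CPM and fell by 1.77, 1.49 and 1.84 (adjusted p = 8.38e-07, 5.7e-07 and 8.9e-08). ADA, adenosine deaminase, fell by 0.85 relative to NT and 1.03 relative to Doxo+Cyta (adjusted p = 0.000997 and 4.86e-05). NT5E, the ecto-nucleotidase CD73, fell by 1.12 relative to Doxo (adjusted p = 0.0188), with 3 to 22 counts per library, and was not called with DESeq2 (adjusted p = 0.0555) or without Doxo+Cyta+DAC 30 (0.0537). NT5E fell by 1.73 relative to Doxo+Cyta (adjusted p = 0.000752), and had -0.30 relative to NT (95% interval -1.27 to 0.67, adjusted p = 0.627).

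Of 11 other genes of deoxynucleotide supply 5 were higher and 2 lower relative to NT, and 7 higher and 3 lower relative to each of Doxo and Doxo+Cyta. CTPS1, a CTP synthase, had 64.5, 35.7, 36.0 and 207 CPM on average, and was higher relative to Doxo by 2.54 ± 0.30 and relative to Doxo+Cyta by 2.52 ± 0.30 (adjusted p = 8.83e-06 and 7.47e-06). Its relative CTPS2 fell by 0.60 relative to NT and 0.58 relative to Doxo (adjusted p = 0.00302 and 0.00115). Of the mitochondrial pyrimidine nucleotide carriers, SLC25A33 averaged 30.5, 47.7, 34.1 and 65.0 CPM and was higher in Doxo+Cyta+DAC relative to NT by 1.09 (adjusted p = 0.000236), while SLC25A36 fell by 1.01, 0.91 and 0.70 (adjusted p = 0.000714, 0.000489 and 0.00323). In Doxo relative to NT SLC25A33 was higher by 0.64 (adjusted p = 0.0379), a call lost without any library of the 2 groups (0.0646 to 0.236) or with library totals alone (0.068). GLRX, a glutaredoxin that reduces the reductase, fell relative to Doxo+Cyta by 0.86 (adjusted p = 0.0015).

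**Figure D5:**
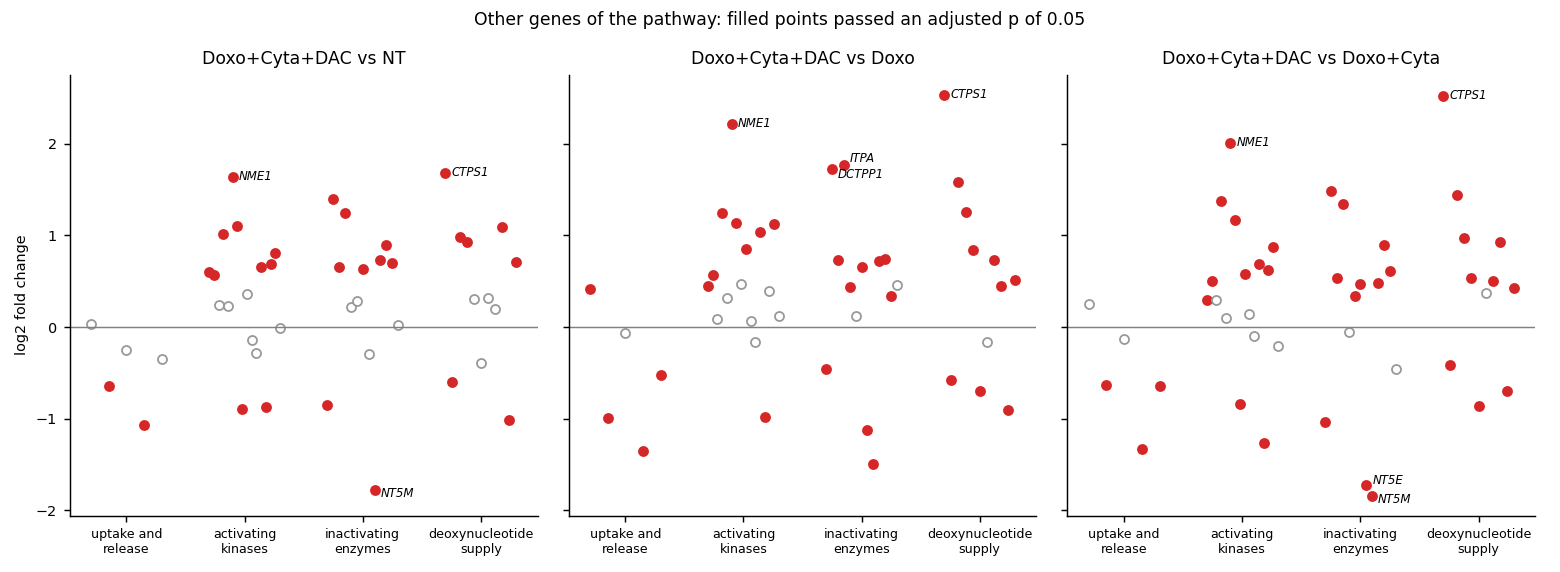
Log2 fold changes (y axes) of the 45 other pathway genes tested, in 4 lists (x axes), for Doxo+Cyta+DAC relative to NT, Doxo and Doxo+Cyta. Filled points passed an adjusted p of 0.05 and names mark changes beyond 1.6, with CTPS1 the highest and NT5M the lowest in each panel.

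Over the 12 libraries the log2 CPM of the members fell into a set that varied together and a pair that ran against it, as a description, since the libraries share the groups. Pearson's r was 0.98 between DCTD and RRM1, 0.94 between RRM1 and RRM2 and 0.94 between DCTD and SAMHD1, and -0.94 between DCK and TYMS. DCK and NT5C2 had an r of 0.76. NT5C2 ran against the set less closely than DCK. Its r ranged from -0.43 with RRM2 to -0.84 with SLC29A2, and that of DCK from -0.79 with SAMHD1 to -0.94 with TYMS. The genes whose pattern was most like that of DCK over all tested genes were TMEM263, WHSC1L1 and TRIQK (r = 0.993, 0.9896 and 0.9895), those most like SAMHD1 were C17orf85, TMEM19 and GALNT7 (0.992, 0.985 and 0.984), and those most like NT5C2 were PLEKHM3, NUDCD1 and FNIP1 (0.966, 0.954 and 0.951). For SLC29A1 they were PRDX4, ARPC1A and SARS (0.981, 0.974 and 0.973), for SLC29A2 they included C17orf96 and ATP13A2 (0.977 and 0.976), and for DCTD they were SEH1L, GAR1 and CHRAC1 (0.996, 0.994 and 0.993). For RRM1 they were UBLCP1, UBE3C and ZNF200 (0.993, 0.984 and 0.983), for RRM2 ECD, RAB35 and ETF1 (0.983, 0.982 and 0.980) and for TYMS they included CCDC137 and SPHK2 (0.994 and 0.993).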

How the data were processed

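RNA of 12 samples was sequenced as paired-end reads. The authors filtered the reads, aligned them to GRCh38 with Bowtie2 2.2.8 and counted fragments per gene with featureCounts 1.6.0, without regard to strand and without fragments assigned to several places or genes. The deposited values are these counts per gene, not normalized, with the summed exon length of each gene. Bowtie2 does not split reads over exon junctions, which lowers the counts of genes with short exons in every sample. Of 26485 genes, 4 lacked a count, and 26481 were used. The names of 4 genes read as dates, and none of these is described here. Samples were grouped by their labels, which give no batch.

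Counts were tested with edgeR 4.0.16 in R 4.3.3 (filterByExpr, TMM scaling, glmQLFit and glmQLFTest, two-sided), with all 12 samples in 1 fit and Benjamini-Hochberg adjustment over the 14164 tested genes of each of 6 comparisons. SE is the size of the log2 fold change over the root of F, and values after ± are SE of fits. Log2 CPM used a prior count of 2. The fit was tested on simulated data. Pearson correlations were computed in Python 3.11.15 with pandas 2.3.3, S-phase genes are those of Seurat 5.3.0, and positions are from GENCODE 44. The libraries of a group differed by more than sampling noise and none was a duplicate.

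The members, the pathway and marker lists and the tests were chosen with earlier results of these data known. Named were all 10 members, in each list and comparison up to 2 called genes per direction with the smallest adjusted p, and for each member the 3 genes with the highest r. Some genes that this rule names are not reported here. ENOSF1, TYMSOS and TLDC2 were named for their overlap with members. Alternatives were RLE scaling, no filter, at least 10 counts in every sample, DESeq2 1.42.0, only the groups compared in the fit, an adjusted p under 0.01 and leaving out each replicate. Library totals alone, and leaving out both Doxo 4 and Doxo+Cyta 20, were added after the data were seen.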

Additional observations from a re-analysis of the deposited data

Results flagged for a closer look

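In groups of 4 samples, a library was marked when its gap to the nearest other exceeded Dixon's 95% limit for its share of the range. Doxo+Cyta+DAC is the only group of 4, so no other group could be marked. The rule was applied to 31 genes in its 4 libraries, and 3 were marked. Chance marks about 1 in 20, but these tests share the libraries and are not independent. TYMS was lowest in Doxo+Cyta+DAC 33 at 102 CPM, with the others at 114.2 to 114.6. UCK2 was lowest in the same library at 99.1 CPM, with the others at 108.7 to 110.1. CDA was highest in Doxo+Cyta+DAC 32 at 0.105 CPM, which is 2 counts, with the others at 0, a case that the rule always marks.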

How the results depend on the processing

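No paired analysis was possible because the groups share no replicate numbers. All calls of members with Doxo+Cyta+DAC kept their direction under every alternative, and at an adjusted p under 0.05 all stayed called, except on leaving out 1 library for NT5C2 relative to Doxo (lost in 5 of 14 settings), SAMHD1 relative to NT (1 of 13) and TYMS relative to NT (1 of 13). The number of members called in Doxo relative to NT, 0, was 1 with no filter, 1 with DESeq2, 0 to 1 on leaving out a library (1 without Doxo 4) and 4 without both Doxo 4 and Doxo+Cyta 20. Without both it was 2 in Doxo+Cyta relative to NT and 1 in Doxo+Cyta relative to Doxo, the latter 0 to 1 on leaving out a library (1 without Doxo 4).

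The number of other pathway genes called in Doxo relative to NT, 3, was 0 at an adjusted p under 0.01, 5 with no filter, 5 with DESeq2, 0 to 13 on leaving out a library (13 without Doxo 4, 0 without any of the others) and 20 without both. In Doxo+Cyta relative to Doxo, 1 became 0 at an adjusted p under 0.01, 4 with DESeq2, 0 with only the groups compared, 0 to 3 on leaving out a library (0 without Doxo 5, Doxo 6 or Doxo+Cyta 19, 2 without Doxo+Cyta 20 or 22, 3 without Doxo 4) and 5 without both. In Doxo+Cyta relative to NT it was 10 without both. In Doxo+Cyta+DAC relative to NT, 28 became 35 without both and 18 to 28 on leaving out a library (18 without NT 2).

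Members that were not called changed sign as follows. SLC29A1 in Doxo relative to NT had -0.071 with library totals alone and -0.0057 with no filter, and in Doxo+Cyta relative to NT -0.0061 with library totals alone. It ran from -0.022 to 0.18 in Doxo+Cyta relative to NT, and from -0.042 to 0.16 relative to Doxo, on leaving out libraries. DCTD in Doxo relative to NT had -0.0099 with RLE scaling, -0.11 with library totals alone, -0.050 with no filter, -0.0064 with at least 10 counts in every sample and -0.010 with DESeq2, and -0.068 to 0.0093 on leaving out libraries. On leaving out libraries, in Doxo+Cyta relative to NT DCK ran from -0.17 to 0.060 and RRM2 from -0.051 to 0.0075, and in Doxo+Cyta relative to Doxo SLC29A2 ran from -0.16 to 0.68, SAMHD1 from -0.37 to 0.11 and TYMS from -0.093 to 0.11. Library totals alone moved the median of all genes by -0.12 in Doxo relative to NT and by -0.10 in Doxo+Cyta+DAC relative to NT. The cause of these changes was not tested.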
